A study of Mus musculus with 912 samples.

Results

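Single nuclei of dentate gyrus (DG) granule neurons taken 5 h after a brief exposure to an unfamiliar environment (NE), and sorted for ARC protein without FOS protein, were compared with DG nuclei of home cage (HC) mice. The 5 h nuclei came from the second set of the study, in which they were labelled as ARC+FOS- and sorted as PROX1+CTIP2+. The HC nuclei came from the first set, in which they were sorted as NEUN+, PROX1+CTIP2+ and FOS- and were assigned to the DG by the study. A nucleus was kept when at least 4000 genes exceeded 1 on the log2(TPM+1) scale, where TPM is a transcript abundance scaled for length and depth. This left 59 of 96 nuclei from 4 mice at 5 h and 24 of 24 nuclei from 2 HC mice, which made 83 of the 912 nuclei of the series.

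All mice were wild-type C57BL6 females. The 5 h mice explored the NE for 15 min and were returned to the home cage, and the HC mice had no exposure. HC mice 6 and 7 were 7.75 and 8.57 weeks old and carried the same date code. The 5 h mice 8 and 9 were 8.7 weeks old and carried an earlier date code than mice 22 and 23, which were 8.85 weeks old. Each library held the polyadenylated RNA of 1 nucleus, prepared by SmartSeq2, a full-length method. HC nuclei were not stained for ARC, 5 h nuclei were not stained for NEUN, and no 5 h nuclei without ARC were among those compared. The time after NE, the ARC sort, the date of collection and the set of libraries therefore cannot be told apart in any difference between 5 h and HC.

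Granule neurons of the DG receive the main cortical input to the hippocampus, and only a small share of them is active in a given environment. Activity switches on immediate early genes, such as Fos and Arc, within minutes. Their products and the same calcium and kinase signals then drive later genes, whose products include secreted factors, synaptic proteins and channels. FOS protein disappears sooner than ARC protein, so that ARC without FOS marks a neuron that was active some hours earlier. Nuclear RNA holds both fresh transcripts and RNA that has not left the nucleus.

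The 2 dates of the 5 h group differed in depth and in the number of nuclei kept. Mice 8 and 9 kept 22 and 21 of 24 nuclei with median totals of 381170 and 350943 counts, whereas mice 22 and 23 kept 10 and 6 of 24 nuclei with medians of 1776118 and 1555742 counts. HC mice 6 and 7 gave 19 and 5 nuclei with medians of 1027777 and 558093 counts. The median number of genes per kept nucleus was 5552 and 5437 in mice 8 and 9, 4249 and 4208.5 in mice 22 and 23, and 5603 and 6314 in HC mice 6 and 7. The deeper nuclei of the later date thus held fewer genes than the shallower nuclei of the earlier date.

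**Figure D1:**
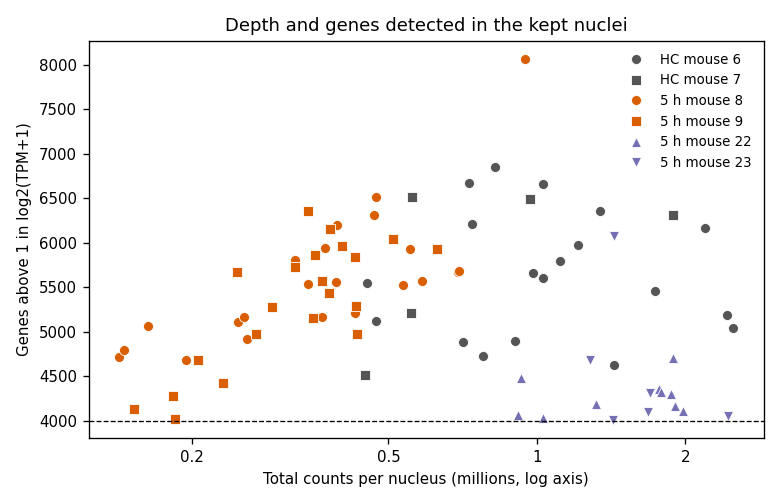
Total counts per nucleus (x axis, log scale) against the number of genes above 1 in log2(TPM+1) (y axis) for the kept nuclei of HC mice 6 and 7 (grey), 5 h mice 8 and 9 (orange) and 5 h mice 22 and 23 (purple). The dashed line is the minimum of 4000 genes, and the purple nuclei lie at high totals close to that line.

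The labels were first checked against marker genes. Prox1, the transcription factor that defines granule neurons, averaged log2(TPM+1) levels of 5.01 and 5.45 in HC mice 6 and 7 and of 4.34, 4.90, 4.61 and 4.09 in 5 h mice 8, 9, 22 and 23, the order used for all mice hereafter. It was detected, that is above 1, in 22 of 24 HC nuclei and 49 of 59 5 h nuclei. Bcl11b, which encodes CTIP2, averaged 3.61 and 3.78 in HC and 2.56, 2.02, 1.07 and 0.05 at 5 h, and the RNA was thus close to 0 in mouse 23 although its protein was part of the sort. Slc17a7, the vesicular glutamate transporter of these cells, averaged 7.56 and 6.61 in HC and 7.49, 7.06, 2.05 and 2.77 at 5 h, and was low in both mice of the later date.

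Markers of other cell types were scarce but not absent. Levels were summed over the markers that entered the fit described below, in CPM (counts scaled to a common library total). The sum of 6 of 7 interneuron markers was 142 and 46.2 in HC mice 6 and 7 against 181, 124, 649 and 27.8 in 5 h mice 8, 9, 22 and 23, so that mouse 22 stood above the others. Gad2, which makes GABA in interneurons, was detected in 0 of 24 HC nuclei and 9 of 59 5 h nuclei. On the same scale, the 7 oligodendrocyte lineage markers summed to 223 to 357 in HC and 79.5 to 390 at 5 h, and the 6 astrocyte markers to 0.409 to 68.5 in HC and 6.14 to 128 at 5 h. Microglia markers summed to 16.6 to 77.1 in HC and 3.10 to 9.01 at 5 h, and 3 of 4 endothelial markers to 1.27 to 2.04 in HC and 2.19 to 22.1 at 5 h. CA1 markers summed to 16.6 to 35.4 in HC and 0.104 to 27.9 at 5 h, and CA3 markers to 0 to 5.27 in HC and 0 to 20.0 at 5 h. For 3 of 4 mossy cell markers the sum was 0.613 to 7.31 in HC and 0.120 to 73.7 at 5 h. The interneuron markers Slc32a1 and Vip, the microglia marker C1qa, the endothelial marker Ly6c1 and the CA1 marker Pou3f1 had no count in any of the 83 nuclei. No member of these lists was called in either direction, and their part in the results below was not tested.

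For the comparison of 5 h with HC, counts were summed over the nuclei of each mouse, so that the mouse and not the nucleus was the replicate. The sums of all 9 DG groups, 26 in all, entered an edgeR quasi-likelihood fit, and a gene was called when its Benjamini-Hochberg adjusted p over 24408 genes was below 0.05. The fold changes given below are log2 values of 5 h over HC from this fit, whereas levels are means of log2(TPM+1) over the nuclei of a mouse. At 5 h, 40 genes were higher, which was 0.164% of the genes tested, and 1 gene, Fam163b, was lower, which was 0.0041%. An unadjusted p below 0.05 was reached by 2468 genes, 1174 of them higher and 1294 lower.

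The 40 genes were led by Slc6a8, Trim9, Arc, Synpo and Ccnt2, and included secreted factors (Scg2, Inhba, Nptx2, Bdnf, Chgb) and postsynaptic proteins (Arc, Synpo, Shank1, Tanc1). For 32 of them, every 5 h mouse exceeded both HC mice in mean log2(TPM+1), where 3.62% of 22997 genes with a level did so. The calls used these same mice, so that this count is not independent support. The number of calls depended on the tool and on the HC mice. DESeq2 on the same sums called 1221 genes higher and 513 lower, and limma on the mean log2(TPM+1) levels called 138 higher and 1294 lower. Without HC mouse 7, whose sum held 5 nuclei, 9 genes were called higher and 6 lower, and 7 of the 40 stayed called (Arc, Ccnt2, Synpo, Brinp1, Inhba, Trim9 and Slc6a8). Without HC mouse 6, 184 were called higher and 20 lower. Without 5 h mouse 23, 61 were called higher and 7 lower. A fit of the 6 mice alone called none, with 736 genes at an unadjusted p below 0.05. An exact permutation test over the 15 splits into 4 and 2 mice cannot go below p = 0.0667 one-sided, or 0.133 where that value is doubled.

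Arc encodes a cytoskeletal protein of active synapses, and its protein was the sort criterion at 5 h. Its RNA averaged 0.61 and 0.37 in the HC mice and 6.83, 6.86, 4.70 and 3.48 in the 5 h mice, with group means of 0.49 ± 0.17 (SD, n = 2 mice) and 5.47 ± 1.67 (SD, n = 4 mice). The difference was called by edgeR (log2 fold change 7.24, SE 0.79, adjusted p = 0.000114). All 5 h mice lay above both HC mice, and the earlier date lay above the later. Arc RNA was detected in 3 of 24 HC nuclei and 49 of 59 5 h nuclei, and 1 HC nucleus held 93.79% of the HC counts. The gene lies at chr15:74669083-74672570 in GRCm38.

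Slc6a8, the creatine transporter, had the smallest p of all genes (log2 fold change 8.71, SE 0.80, adjusted p = 1.93e-05, edgeR). It averaged 0.42 and 0.32 in HC and 5.58, 4.92, 3.70 and 2.06 at 5 h, and it was detected in 4 of 24 HC nuclei and 43 of 59 5 h nuclei. Its group means were 0.37 ± 0.07 (SD, n = 2 mice) and 4.06 ± 1.55 (SD, n = 4 mice), a spread at 5 h that again separated the earlier from the later date. The gene lies at chrX:73673150-73682502.

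Trim9, a brain E3 ubiquitin ligase, and Ccnt2, the cyclin T2 subunit of the elongation kinase P-TEFb, were already high in HC nuclei. Trim9 averaged 5.01 and 5.86 in HC and 8.65, 8.59, 6.25 and 7.70 at 5 h (log2 fold change 2.17, SE 0.21, adjusted p = 3.67e-05, edgeR). Ccnt2 averaged 6.70 and 5.58 in HC and 10.95, 10.96, 10.96 and 10.77 at 5 h, group means of 6.14 ± 0.79 (SD, n = 2 mice) and 10.91 ± 0.09 (SD, n = 4 mice). The difference was called by edgeR (log2 fold change 2.5, SE 0.32, adjusted p = 0.000728). All 5 h mice lay above both HC mice for both genes, and Ccnt2 was detected in 19 of 24 HC nuclei and 59 of 59 5 h nuclei. Trim9 lies at chr12:70244533-70347614 and Ccnt2 at chr1:127774164-127808061.

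Synpo encodes synaptopodin, the actin-associated protein of the spine apparatus. It averaged 4.04 and 4.31 in HC and 8.87, 8.65, 7.22 and 8.07 at 5 h and was detected in 17 of 24 HC nuclei and 59 of 59 5 h nuclei (log2 fold change 3.10, SE 0.38, adjusted p = 0.000475, edgeR). Brinp1, a neuron-specific secreted or membrane-trafficked protein, averaged 4.34 and 5.71 in HC and 9.99, 9.97, 8.80 and 9.51 at 5 h (log2 fold change 2.48, SE 0.38, adjusted p = 0.00533, edgeR). For both genes, each 5 h mouse exceeded both HC mice.

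A second group of called genes was almost silent in HC nuclei. Rnd3, an atypical small GTPase that lowers actomyosin contraction, averaged 0.19 and 0 in HC and 1.90, 2.53, 3.67 and 3.11 at 5 h (log2 fold change 9.11, SE 1.29, adjusted p = 0.00299, edgeR). Ppan, a ribosome biogenesis factor, averaged 0.81 and 0.49 in HC and 5.22, 3.61, 1.84 and 3.29 at 5 h (log2 fold change 5.51, SE 0.82, adjusted p = 0.00533, edgeR). Pim1, a serine/threonine kinase, had no count in any HC nucleus and averaged 0.77, 1.24, 1.40 and 2.28 at 5 h (adjusted p = 0.00533, edgeR). With the HC sums set to a floor of 3 counts over the group, Pim1 was at least 120-fold higher at 5 h. Pim1 was detected in 0 of 24 HC nuclei, which allows a share of up to 12.5% by counting error alone, and in 21 of 59 5 h nuclei.

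Samd4, an RNA-binding translational repressor, and Trip10, an adaptor of the small GTPase Cdc42, were likewise at 0 counts in HC. They averaged 1.95, 0.97, 0.26 and 1.11 and 0.86, 0.35, 1.04 and 1.37 at 5 h, at least 271-fold and 676-fold higher than the same floor (adjusted p = 0.0191 and 0.0303, edgeR). A single nucleus held 70.8% of the 5 h counts of Trip10 and 43.5% of those of Samd4. Their detection was low, with 7 of 59 5 h nuclei for Trip10 and 16 of 59 for Samd4. Both called differences thus rested on few nuclei.

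Promoter sequences are shown for 4 of the genes called higher with the smallest p whose mice do not overlap, since these genes rose together and the activity-regulated factors CREB and AP-1 are known to bind short defined motifs. Each runs from 250 bases before to 50 bases after the start in GRCm38.p6, 5′ to 3′ on the gene's strand, and capitals mark a full cAMP response element (CRE). No entry was found for Slc6a8 and Arc, and genes on a chromosome that was set aside beforehand are not shown.
Trim9, chr12:70347565-70347864, minus strand: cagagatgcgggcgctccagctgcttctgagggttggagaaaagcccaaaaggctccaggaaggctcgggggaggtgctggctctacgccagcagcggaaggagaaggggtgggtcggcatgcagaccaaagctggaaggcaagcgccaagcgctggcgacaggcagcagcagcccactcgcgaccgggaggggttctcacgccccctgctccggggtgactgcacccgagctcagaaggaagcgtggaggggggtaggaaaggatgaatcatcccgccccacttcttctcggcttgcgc
Ccnt2, chr1:127773914-127774213, plus strand: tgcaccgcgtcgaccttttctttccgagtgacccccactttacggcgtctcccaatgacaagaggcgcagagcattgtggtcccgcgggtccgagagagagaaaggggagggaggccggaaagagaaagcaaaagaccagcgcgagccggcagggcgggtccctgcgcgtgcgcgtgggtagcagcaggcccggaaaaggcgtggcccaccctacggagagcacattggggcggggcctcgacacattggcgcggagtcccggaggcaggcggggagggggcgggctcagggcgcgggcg
Rnd3, chr2:51149062-51149361, minus strand: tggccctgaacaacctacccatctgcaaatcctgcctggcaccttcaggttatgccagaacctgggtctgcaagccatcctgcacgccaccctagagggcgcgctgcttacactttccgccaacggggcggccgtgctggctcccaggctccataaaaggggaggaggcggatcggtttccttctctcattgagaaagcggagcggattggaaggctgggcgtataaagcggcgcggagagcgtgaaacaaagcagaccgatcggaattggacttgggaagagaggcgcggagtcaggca
Ppan, chr9:20887925-20888224, plus strand: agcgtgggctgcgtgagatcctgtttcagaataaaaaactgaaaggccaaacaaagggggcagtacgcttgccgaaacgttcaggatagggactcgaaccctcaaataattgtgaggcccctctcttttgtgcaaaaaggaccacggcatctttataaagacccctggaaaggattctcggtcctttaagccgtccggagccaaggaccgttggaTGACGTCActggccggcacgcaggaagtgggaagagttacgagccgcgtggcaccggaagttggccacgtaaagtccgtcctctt

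The Ppan promoter held the CRE (TGACGTCA) from position -35 relative to the start, and the other 3 held neither this motif nor the AP-1 motif (TGAGTCA) on either strand. Among the 40 genes called higher, 27 had promoter entries outside the chromosome set aside, with 55 starts between them. The count over all promoters below includes that chromosome. A CRE was found in 4 of these 55 promoters (7.27%), against 588 of all 32851 promoters (1.79%). The AP-1 motif was found in 1 of 55 (1.82%), against 1709 of 32851 (5.2%). The genes with either motif were Arpp21, Chgb, Plk2, Ppan and Scg2. A match of letters is a description of these windows and not a bound site.

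**Figure D2:**
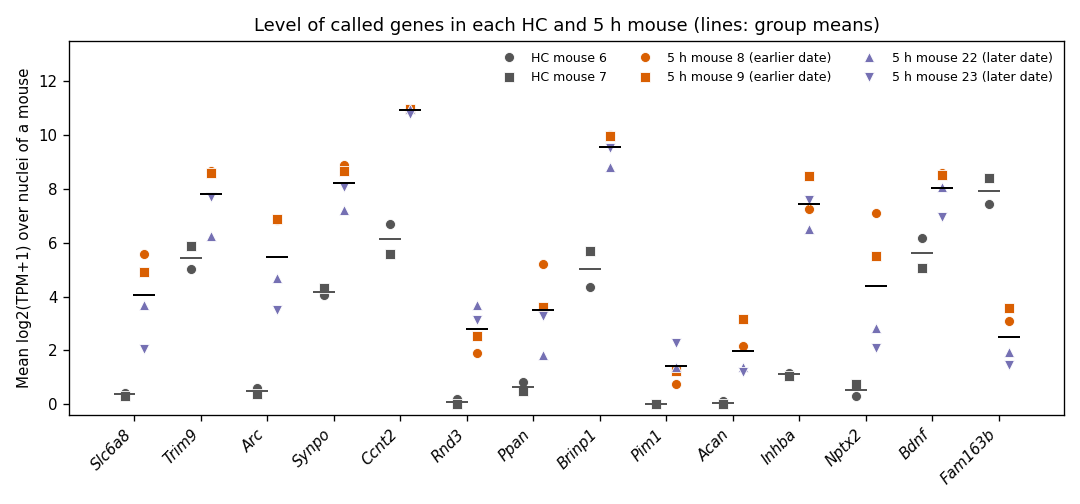
Mean log2(TPM+1) over the nuclei of a mouse (y axis) for 14 genes called in the comparison of 5 h with HC (x axis). Grey points are HC mice, orange and purple points are 5 h mice of the earlier and later date, and short lines are group means. All 5 h points lie above the HC points except for Fam163b, where they lie below.

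Secreted factors and neuropeptides had the most calls among the lists by function. These lists and their members were chosen with earlier results of these data known. Their counts, here and below, are therefore not independent evidence. Of 18 members, 5 rose and none fell by edgeR, against 0.164% of all genes called higher. In levels, all 5 h mice lay above both HC mice for 8 members and below for 1, against 3.62% and 11.6% of all genes. Their median log2 fold change was 2.11, against 0.00 over all genes, and the median difference in log2(TPM+1) was 1.07. Inhba, the activin A subunit, averaged 1.17 and 1.07 in HC and 7.26, 8.47, 6.49 and 7.58 at 5 h and was detected in 8 of 24 HC nuclei and 58 of 59 5 h nuclei (log2 fold change 5.72, SE 0.98, adjusted p = 0.0185, edgeR). Its 5 h mice did not separate by date.

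Nptx2, a pentraxin that clusters AMPA receptors, averaged 0.30 and 0.76 in HC and 7.09, 5.50, 2.84 and 2.09 at 5 h (log2 fold change 5.83, SE 1.00, adjusted p = 0.0185, edgeR). The neurotrophin gene Bdnf averaged 6.17 and 5.06 in HC and 8.60, 8.52, 8.05 and 6.94 at 5 h (log2 fold change 2.04, SE 0.39, adjusted p = 0.0342, edgeR). Nptx2 was near 0 in HC and Bdnf was not, and both were higher in all 5 h mice than in both HC mice.

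The granin genes Scg2 and Chgb encode cargo proteins of dense-core vesicles. Scg2 averaged 6.65 and 8.06 in HC and 10.11, 9.67, 8.57 and 7.90 at 5 h (log2 fold change 2.19, SE 0.29, adjusted p = 0.00107, edgeR), so that 5 h mouse 23 lay just below HC mouse 7. Chgb averaged 6.69 and 4.11 in HC and 9.21, 9.18, 7.52 and 7.58 at 5 h (log2 fold change 2.59, SE 0.52, adjusted p = 0.0466, edgeR). Ptprn, another protein of these vesicles, averaged 3.51 and 5.12 in HC and 7.56, 6.60, 6.78 and 4.42 at 5 h (log2 fold change 2.11, adjusted p = 0.036, edgeR), with mouse 23 again inside the HC range.

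Other members of the list did not pass the test. Vgf, a neuropeptide precursor, averaged 0.20 and 0 in HC and 4.83, 4.74, 0.10 and 1.08 at 5 h, high at the earlier date only (log2 fold change 7.66, SE 1.6, adjusted p = 0.0518, edgeR). Npy averaged 0.71 and 0 in HC and 4.01, 4.42, 4.90 and 2.12 at 5 h, without overlap, at an adjusted p of 0.42 (edgeR). Cck, the cholecystokinin precursor, averaged 8.01 and 9.65 in HC and 6.75, 6.86, 3.32 and 5.31 at 5 h, the one member with all 5 h mice below both HC mice (adjusted p = 0.431, edgeR).

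Among 21 postsynaptic scaffold genes, Arc, Synpo, Shank1 and Tanc1 rose and none fell by edgeR, against 0.164% of all genes called higher. The protein of Arc was the sort criterion at 5 h. In levels, 5 members lay above HC in all 5 h mice and 0 below, against 3.62% and 11.6% of all genes. The list's median log2 fold change was 0.64 and its median difference in log2(TPM+1) was 0.15. Shank1, a master scaffold of excitatory synapses, averaged 4.11 and 3.56 in HC and 6.82, 6.76, 5.93 and 6.39 at 5 h (log2 fold change 3.20, SE 0.56, adjusted p = 0.0191, edgeR). Tanc1, a scaffold with ankyrin repeats, averaged 6.59 and 6.79 in HC and 8.68, 8.07, 7.11 and 7.74 at 5 h (log2 fold change 1.56, SE 0.29, adjusted p = 0.0314, edgeR). Dlg2, which encodes PSD-93, averaged 6.43 and 6.51 in HC and 8.39, 8.17, 5.97 and 5.58 at 5 h and was above HC at the earlier date only (adjusted p = 0.5, edgeR).

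Of 18 extracellular matrix and perineuronal net genes, Acan rose and none fell by edgeR, against 0.164% of all genes called higher. In levels, 7 lay above HC in all 5 h mice and 2 below, where the shares over all genes were 3.62% and 11.6%. The median log2 fold change of the list was 1.5, whereas its median difference in log2(TPM+1) was 0.04. Acan, the net proteoglycan aggrecan, averaged 0.12 and 0 in HC and 2.16, 3.16, 1.39 and 1.18 at 5 h and was detected in 1 of 24 HC nuclei and 26 of 59 5 h nuclei (log2 fold change 8.76, SE 1.36, adjusted p = 0.00673, edgeR). Pxdn, a peroxidase that cross-links collagen IV, averaged 1.26 and 2.30 in HC and 5.46, 5.82, 5.19 and 2.95 at 5 h (log2 fold change 4.30, SE 0.92, adjusted p = 0.0558, edgeR). Ncan, neurocan, averaged 5.52 and 6.10 in HC and 7.09, 6.79, 7.76 and 8.59 at 5 h (adjusted p = 0.22, edgeR), and Ptprz1, a receptor for such proteoglycans, 3.58 and 2.83 in HC and 7.81, 7.34, 6.81 and 4.75 at 5 h (adjusted p = 0.0952, edgeR). None of Pxdn, Ncan and Ptprz1 passed the threshold, although the mice did not overlap.

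A list of 7 genes held 5 that the study names as predictors of reactivation (Blnk, Tnik, Acan, Entpd4 and Hes7) and Sorcs3 and Dgat2l6, which it names as late genes of reactivated nuclei. The study chose them on its own samples, so that their direction here is not independent evidence. Acan alone was called by edgeR, where 0.164% of all genes were called higher. Sorcs3, a sortilin-family sorting receptor, averaged 0.87 and 0 in HC and 6.08, 6.05, 5.77 and 5.03 at 5 h and was detected in 2 of 24 HC nuclei and 50 of 59 5 h nuclei. Its summed counts did not pass the test (log2 fold change 4.17, SE 1.35, adjusted p = 0.297, edgeR), and 1 of the 24 HC nuclei held 87.48% of the HC counts. Sorcs3 was called by edgeR when HC and 1 h FOS- nuclei with an Arc level above 2.5, the study's own exclusion, were left out (log2 fold change 7.06, adjusted p = 0.0271), and without HC mouse 6 (adjusted p = 0.00115). It was also called by DESeq2 (adjusted p = 0.0412) and by limma on the mean levels (difference 5.30, adjusted p = 0.000113). By edgeR, it was not called with thinned counts (adjusted p = 0.281), with a threshold of 5000 genes (0.163) or with the 6 mice alone (0.897), among other settings. With each nucleus thinned to 100000 counts, Sorcs3 had any count in 12.5% of HC and 83.05% of 5 h nuclei, a looser measure than detection above.

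Blnk, an adaptor best known from B cells, averaged 1.16 and 0.91 in HC and 6.10, 5.19, 3.00 and 3.46 at 5 h (log2 fold change 4.18, SE 1.03, adjusted p = 0.115, edgeR). Dgat2l6, an acyltransferase-like gene, averaged 0.44 and 0.16 in HC and 3.31, 4.23, 5.67 and 2.40 at 5 h and was detected in 1 of 24 HC nuclei and 38 of 59 5 h nuclei (adjusted p = 0.138, edgeR). Tnik, a kinase of postsynaptic and Wnt signalling, went the other way in levels, 7.5 and 8.16 in HC and 5.95, 6.00, 5.89 and 4.28 at 5 h, with a fitted log2 fold change of -0.31 (adjusted p = 0.846, edgeR). All 3 kept the 5 h mice on one side of the HC mice without passing the test.

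**Figure D3:**
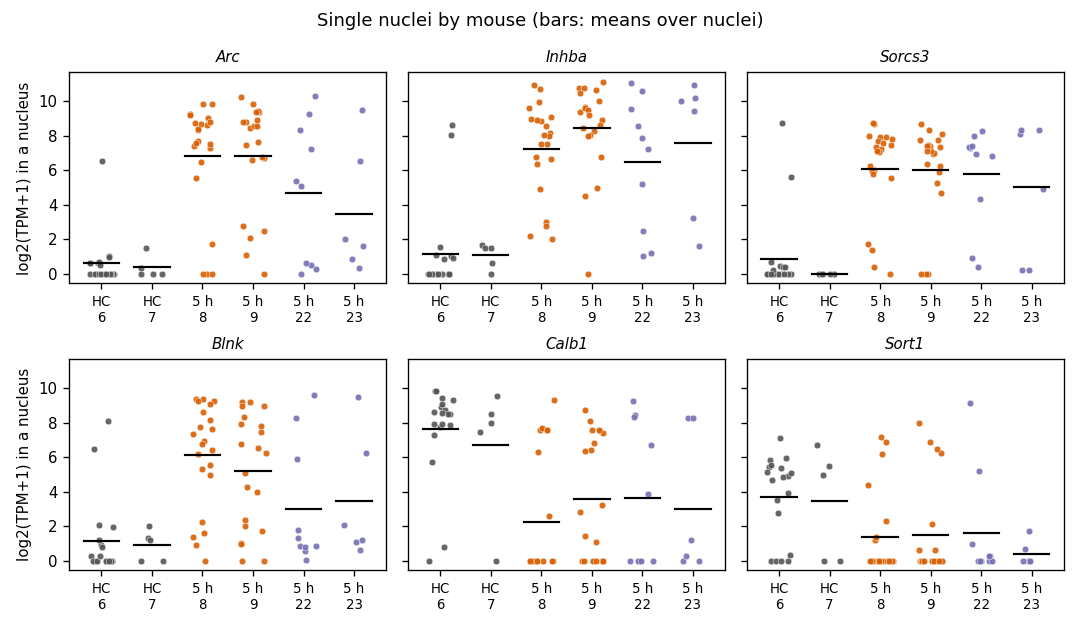
log2(TPM+1) of Arc, Inhba, Sorcs3, Blnk, Calb1 and Sort1 in each kept nucleus (y axis) by mouse (x axis), with bars at the mean over nuclei. For Sorcs3, 2 of 24 HC nuclei and 50 of 59 5 h nuclei exceeded 1, and for Sort1, 17 of 24 and 15 of 59.

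Single members of the signalling and channel lists rose, where 0.164% of all genes were called higher. Rgs7, a regulator that shortens G protein signals, was the 1 call among 12 such genes, at 2.38 and 4.23 in HC and 7.48, 7.61, 5.62 and 5.12 at 5 h (log2 fold change 2.98, SE 0.51, adjusted p = 0.0186, edgeR). Mapk4, an atypical MAP kinase, was the 1 call among 17 genes of MAP kinase feedback, at 2.18 and 4.09 in HC and 7.38, 7.01, 5.91 and 5.37 at 5 h (log2 fold change 2.59, SE 0.45, adjusted p = 0.0191, edgeR). Spry2, a feedback inhibitor in that list, averaged 4.21 and 1.81 in HC and 6.56, 6.79, 7.62 and 8.14 at 5 h and did not pass (adjusted p = 0.0614, edgeR). The lists' median log2 fold changes were 2.44 and 0.90.

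Per2, a repressor of the circadian clock that also responds to activity, was the 1 call among 18 clock genes. The share of all genes called higher, 0.164%, stands beside this and the next 2 lists. It averaged 0.39 and 0 in HC and 2.53, 1.57, 1.42 and 2.02 at 5 h (log2 fold change 5.54, SE 1.11, adjusted p = 0.045, edgeR), and the list's median log2 fold change was -0.85. Cacnb1, a calcium channel β subunit, was the 1 call among 25 calcium and sodium channel genes, at 0.27 and 0 in HC and 1.6, 3.04, 0.69 and 0.85 at 5 h (log2 fold change 6.99, adjusted p = 0.0303, edgeR). Rtn4rl1, a Nogo receptor family member, was the 1 call among 37 axon guidance genes, at 3.46 and 2.74 in HC and 7.81, 8.40, 3.67 and 3.89 at 5 h (log2 fold change 3.08, adjusted p = 0.0382, edgeR). Rtn4rl1 was high at the earlier date and close to the HC level at the later date.

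Setd8, which places a methyl group on histone H4 rather than removing one, was the 1 call among 22 genes of DNA and histone demethylation. Of all genes, 0.164% were called higher. It averaged 0.39 and 0.93 in HC and 2.31, 3.63, 2.66 and 1.88 at 5 h (log2 fold change 4.03, SE 0.81, adjusted p = 0.045, edgeR). Tet3, a DNA demethylase, averaged 3.24 and 2.82 in HC and 5.85, 5.11, 2.58 and 1.84 at 5 h, above HC at the earlier date and below it at the later (adjusted p = 0.39, edgeR). Gadd45b, an activity-regulated demethylation factor, averaged 0.83 and 1.07 in HC and 1.41, 4.09, 0.71 and 0.35 at 5 h, with mouse 9 alone well above HC (adjusted p = 0.483, edgeR).

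The remaining calls belonged to none of these lists. Plk2, a polo-like kinase that acts at dendritic spines, averaged 4.32 and 2.57 in HC and 8.34, 7.37, 10.56 and 9.39 at 5 h (log2 fold change 4.30, SE 0.76, adjusted p = 0.0191, edgeR), and its level was higher in both mice of the later date. Pcdh8, an activity-regulated protocadherin, averaged 2.77 and 2.13 in HC and 6.56, 6.70, 6.74 and 3.56 at 5 h (log2 fold change 3.57, adjusted p = 0.0282, edgeR). Fam19a1, a small secreted chemokine-like protein, averaged 5.10 and 4.50 in HC and 10.05, 11.31, 8.51 and 8.23 at 5 h (log2 fold change 3.44, adjusted p = 0.0143, edgeR). The smallest called rise was that of Ank2, an ankyrin of the axonal membrane skeleton, at 8.18 and 7.90 in HC and 9.26, 8.74, 9.06 and 8.94 at 5 h (log2 fold change 1.26, adjusted p = 0.0382, edgeR). Also called higher were Fmnl1, Fam135b, Rfwd2, Plekha5, Arpp21, Abca5, Syne1, Ppp1r16b, Eif4enif1 and the unnamed gene model Gm37211, which had no log2 level.

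No immediate early transcription factor was called by edgeR at 5 h. Of the 21, 5 had an unadjusted p below 0.05, all higher, where 1174 of 24408 genes did so over the whole table. The list's median log2 fold change was 2.93, and its median difference in log2(TPM+1) was 0.23. Fos RNA averaged 0.63 and 0 in HC and 0, 0.42, 2.75 and 0.31 at 5 h, with mouse 22 apart and 65.17% of the 5 h counts in 1 nucleus (log2 fold change 9.37, SE 3.56, adjusted p = 0.412, edgeR). Jun averaged 2.84 and 1.97 in HC and 3.29, 2.20, 3.04 and 1.09 at 5 h, and Egr1 1.75 and 0.26 in HC and 0.60, 0.60, 1.42 and 0.20 at 5 h, with the groups overlapping for both (adjusted p = 0.873 and 0.822, edgeR). Atf3 had no count in HC and averaged 1.88, 1.17, 1.64 and 0.20 at 5 h, at least 617-fold higher than the floor, at an adjusted p of 0.051 (edgeR). DESeq2 on the same sums called Atf3 (adjusted p = 8.29e-07), and 8 of 22 alternatives called it in all.

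Neurotransmitter receptors and potassium channels held no call by edgeR. None of 22 glutamate receptor genes, 13 GABA-A receptor and gephyrin genes or 40 potassium channel genes passed, and their median log2 fold changes were -0.04, 0.00 and 0.21. Their median differences in log2(TPM+1) were -0.36, -0.61 and -0.15. In levels, 1, 2 and 1 members lay above HC in all 5 h mice and 4, 3 and 9 below, against 3.62% and 11.6% of all genes. Gabra4 averaged 5.12 and 2.93 in HC and 7.22, 7.38, 5.36 and 6.43 at 5 h, above HC in every mouse (log2 fold change 0.61, SE 0.40, adjusted p = 0.59, edgeR). Limma on the mean levels called it (difference 2.57, adjusted p = 0.0236), and DESeq2 did not (adjusted p = 0.526). In all, 2 of 22 alternatives called Gabra4. The potassium channel Kcnk1 averaged 5.14 and 7.86 in HC and 9.52, 9.07, 7.59 and 5.28 at 5 h, above HC at the earlier date only (adjusted p = 0.0626, edgeR). DESeq2 called it (adjusted p = 0.0158), and limma on the mean levels did not (adjusted p = 0.353). In all, 4 of 22 alternatives called Kcnk1.

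None of 33 synaptic adhesion genes was called by edgeR, and the list's medians had opposite signs, 0.59 in log2 fold change and -0.32 in log2(TPM+1). DESeq2 called Slitrk3 (log2 fold change 1.37, adjusted p = 0.0418), and limma on the mean levels did not (adjusted p = 0.704). Lingo1, an inhibitory leucine-rich repeat receptor, averaged 2.92 and 1.04 in HC and 8.58, 9.02, 6.61 and 5.76 at 5 h (log2 fold change 4.12, SE 0.86, adjusted p = 0.0518, edgeR). Nrxn3, a presynaptic neurexin, averaged 3.07 and 3.46 in HC and 7.27, 8.18, 5.93 and 4.47 at 5 h (adjusted p = 0.38, edgeR). Neither passed, although both lay above HC in all 5 h mice. Of the 33 genes, 3 lay above HC in this way and 7 below, against 3.62% and 11.6% of all genes. None of 27 chaperone genes was called by edgeR either, and their median log2 fold change was -0.01.

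Fam163b was the single gene called lower. It averaged 7.42 and 8.41 in HC and 3.10, 3.57, 1.93 and 1.45 at 5 h, group means of 7.91 ± 0.70 (SD, n = 2 mice) and 2.51 ± 0.99 (SD, n = 4 mice). The difference was called by edgeR (log2 fold change -2.72, SE 0.52, adjusted p = 0.0342). It was detected in 24 of 24 HC nuclei and 30 of 59 5 h nuclei, and after thinning it had any count in 91.67% and 42.37%. The call was lost without HC mouse 7 (adjusted p = 0.341), without 5 h mouse 9, 22 or 23 (0.0624, 0.075 and 0.0548) and with the earlier-date mice alone (0.165). It was also lost with a threshold of 5000 genes (adjusted p = 0.511), with HC nuclei of any sort (0.398) and with the 6 mice alone (0.682). Next by p among the lower genes were Uqcc1, a complex III assembly factor, at 2.97 and 5.11 in HC and 1.89, 2.18, 1.56 and 2.20 at 5 h, and Magi1, a junctional scaffold, at 3.86 and 3.05 in HC and 1.98, 1.09, 1.75 and 2.42 at 5 h (adjusted p = 0.0518 for both, edgeR). Nbeal2, at 0.37 and 1.41 in HC and 0 in every 5 h mouse, and A230072C01Rik, at 2.45 and 1.42 in HC and 0.79, 0.65, 0.24 and 0.33 at 5 h, had the same adjusted p.

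Markers of the granule neuron itself were lower in level at 5 h without passing the test. Of 10 DG markers, 6 lay below HC in all 5 h mice and none above, against 11.6% of all genes below, and their median difference in log2(TPM+1) was -1.89. Calb1, the calcium buffer calbindin, averaged 7.61 and 6.70 in HC and 2.21, 3.57, 3.66 and 3.00 at 5 h and was detected in 21 of 24 HC nuclei and 28 of 59 5 h nuclei (log2 fold change -1.56, SE 0.79, adjusted p = 0.518, edgeR). Dsp, desmoplakin, averaged 3.08 and 2.31 in HC and 0.18, 0.35, 0.48 and 0 at 5 h, with 77.08% of the 5 h counts in 1 nucleus (adjusted p = 0.456, edgeR). The summed level of the 10 markers was 3700.5 and 4177 in HC mice 6 and 7 against 1743, 1965, 2229 and 3159.7 in 5 h mice 8, 9, 22 and 23, in CPM.

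Sort1, the sorting receptor sortilin, differed by scale. Its mean log2(TPM+1) was 3.71 and 3.43 in HC and 1.34, 1.47, 1.58 and 0.40 at 5 h, and it was detected in 17 of 24 HC nuclei and 15 of 59 5 h nuclei. The fit of summed counts gave the opposite sign (log2 fold change 0.32, SE 1.05, adjusted p = 1, edgeR), with 77.69% of the 5 h counts in 1 nucleus. In limma on the mean levels the difference was -2.37 with an adjusted p of 0.0022.

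Housekeeping lists were also lower in level. Of 90 respiratory chain genes with a level, 44 lay below HC in all 5 h mice and 1 above, against 11.6% and 3.62% of all genes, and the median difference in log2(TPM+1) was -1.31. Of 80 cytoplasmic ribosomal protein genes, 29 lay below and 1 above, with a median difference of -1.27 against the same shares. No member of either list was called by edgeR, and their median log2 fold changes were -0.45 and -0.33. The median over all genes was 0.00 on both scales. The shares and medians over all genes include genes too low to enter limma, and over the 12375 genes that entered it the median difference in level was -0.27. The number of genes detected per nucleus was lower at the later date, and its part in these differences was not tested.

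**Figure D4:**
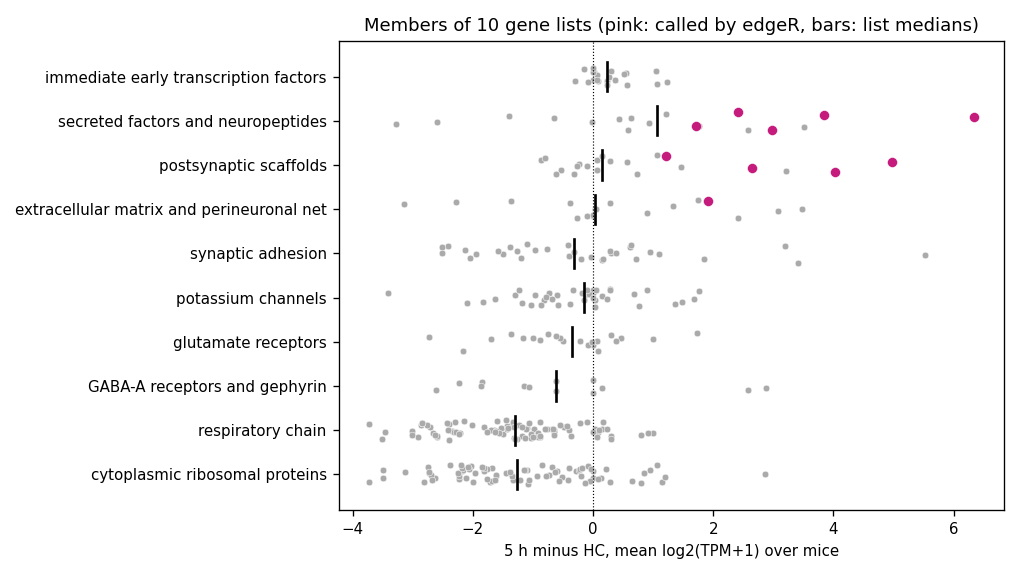
Difference in mean log2(TPM+1) between 5 h and HC mice (x axis) for the members of 10 gene lists (y axis), with pink points for genes called by edgeR, grey for the others, and a bar at each list's median. The secreted factors have their median at 1.07 and 5 pink points, and the respiratory chain genes have theirs at -1.31.

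The study had sorted activity-linked genes into 7 temporal groups from these same nuclei, so that their counts are not independent evidence of direction. Of its group 5, 23 of 107 genes were called higher, with a median log2 fold change of 2.17. Over all genes, 0.164% were called higher. Group 4 had 7 of 129 (median 1.79), group 3 had 2 of 217 (0.60), group 1 had 1 of 252 (0.28), group 6 had 1 of 104 (0.88) and group 7 had 1 of 17 (1.36). Group 2 had no call among 226 genes at a median of 1.77. In that group, both mice of the earlier date lay above both HC mice for 203 genes, and both mice of the later date for 64, where the shares over all genes were 16% and 6.71%.

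The DG nuclei most like these were those taken 4 h after NE with the same ARC+FOS- sort, 68 nuclei from mice 17 and 21, which were 9 and 8.875 weeks old and carried date codes of their own. In the direct contrast of 5 h with 4 h, edgeR called 0 genes (0%), with 1342 at an unadjusted p below 0.05. DESeq2 called 520, 180 higher and 340 lower at 5 h, and limma called 1. The later-date 5 h mice alone gave 346 calls by edgeR, 344 of them lower at 5 h, and the earlier-date mice alone gave none. Arc averaged 8.68 and 8.91 in 4 h mice 17 and 21, above its level in all 5 h mice, but the contrast was not called (log2 fold change -2.12, SE 0.51, adjusted p = 0.685, edgeR).

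The levels of the leading genes at 4 h stand beside those at 5 h as follows. Inhba averaged 8.79 and 8.63 at 4 h, Synpo 10.18 and 9.85, Ccnt2 10.90 and 10.73 and Bdnf 8.69 and 9.08. Inhba, Synpo and Bdnf were above all 5 h mice, and Ccnt2 was near or within their range. Slc6a8 averaged 4.62 and 2.73 and Nptx2 5.2 and 5.00, within the range of the 5 h mice. Sorcs3 averaged 5.56 and 5.63, and Jun averaged 6.59 and 5.65, above all 5 h mice.

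FOS+ nuclei taken 1 h after NE came from 1 mouse of the first set, 8.7 weeks old, so that the spread was borrowed from the other groups. edgeR called 23 genes between 5 h and 1 h FOS+ nuclei (0.0942%), 6 higher and 17 lower at 5 h. Baiap2, an actin regulator of spines also called IRSp53, averaged 11.58 at 1 h against 8.09, 7.58, 4.57 and 5.88 at 5 h (log2 difference -3.94, adjusted p = 0.000277, edgeR). Kdm6b, a histone H3K27 demethylase, averaged 6.82 at 1 h against 0.62, 0.64, 1.66 and 0.39 at 5 h (-5.05, adjusted p = 0.0137, edgeR). Both were thus highest at 1 h.

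Rgs7 and Acvr1c were among the genes higher at 5 h than at 1 h. Rgs7 averaged 0.65 at 1 h, 2.38 and 4.23 in HC and 7.48, 7.61, 5.62 and 5.12 at 5 h (6.63 for 5 h over 1 h, adjusted p = 0.00218, edgeR). Acvr1c, a receptor of the activin and nodal family (ALK7), averaged 0.03 at 1 h, 2.97 and 2.60 in HC and 5.55, 3.48, 4.74 and 2.53 at 5 h (adjusted p = 0.00215 for 5 h over 1 h, edgeR). The 1 h levels of both were below those of the HC mice.

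**Figure D5:**
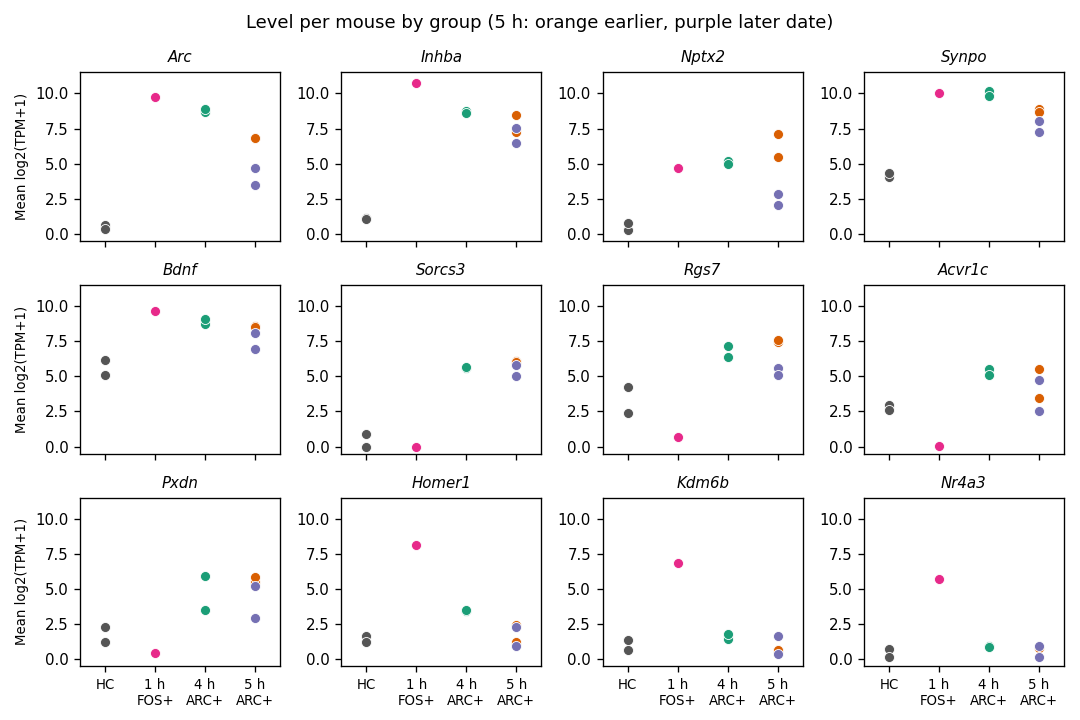
Mean log2(TPM+1) per mouse (y axis) of 12 genes in HC, 1 h FOS+, 4 h ARC+ and 5 h ARC+ nuclei (x axis), 1 point per mouse, with 5 h mice of the earlier date in orange and of the later date in purple. Homer1, Kdm6b and Nr4a3 stand high in the 1 h mouse only, at 8.16, 6.82 and 5.67, and Sorcs3 stands high at 4 h and 5 h only.

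Within the 5 h group, the mice of the later date were compared with those of the earlier date, a contrast added after the data were seen. edgeR called 14 genes higher (0.0574%) and 299 lower (1.23%) at the later date, with 2938 at an unadjusted p below 0.05. Lars2, a mitochondrial leucyl-tRNA synthetase, averaged 8.47 and 8.17 in mice 8 and 9 and 1.07 and 1.26 in mice 22 and 23 (log2 difference -6.69, adjusted p = 5.59e-05, edgeR). Srsf2, a splicing factor, averaged 5.00 and 6.75 at the earlier date and 9.63 and 9.32 at the later (log2 difference 2.75, adjusted p = 0.00591, edgeR). Of the 40 genes called higher at 5 h, Nptx2 was called between dates (log2 difference -2.77, SE 0.65, adjusted p = 0.0382, edgeR), and 16 of the 40 had a lower fitted value at the later date.

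Against HC, the 2 dates gave the following counts. With the earlier-date mice alone, edgeR called 42 genes higher and 3 lower, and 24 of the 40 stayed called. With the later-date mice alone, 136 were higher and 365 lower, and all 40 stayed called. In levels, the earlier-date mice lay below both HC mice for 16.2% of genes. Of the respiratory chain genes, 49 of 90 lay below HC at the earlier date alone, and of the DG markers 6 of 10.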

How the data were processed

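Nuclei were sequenced as SmartSeq2 libraries with 50 bp single-end reads. The authors trimmed reads with Solexa-QA++ and quantified them with RSEM on mm10 with an Ensembl annotation whose release is not given in the sources used here. The deposited tables hold the expected counts per gene that RSEM estimated, all of them whole numbers as deposited, and log2(TPM+1) values per gene that the authors computed. The log2 values carry no depth, so calls were made on counts.

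Samples were grouped by their labels alone. Counts of nuclei with at least 4000 genes above 1 were summed per mouse and group, with at least 2 nuclei per sum. This gave 26 sums of 557 DG nuclei in 9 groups. These were fitted with edgeR 4.0.16 (TMM, filterByExpr, glmQLFit and glmQLFTest) in R 4.3.3, adjusted over 24408 genes. Totals were 142275 to 2437394 counts per 5 h nucleus and 448533 to 2498965 per HC nucleus. PCR copies were not marked by molecular identifiers, so shares and floors cover counting error only. The study excluded FOS- nuclei with an Arc level above 2.5. This was tried as an alternative and removes 1 HC nucleus. Genes without a value, 30 in the count tables and 23 in the log2 tables, were left out. The fit was checked on simulated counts.

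Alternatives were DESeq2 1.42.0, limma 3.58.1 on mean log2(TPM+1), other filters, counts thinned to 100000 per nucleus, and each mouse left out. Promoters came from RefSeq (GRCm38.p6) and gene positions from GENCODE (GRCm38). The genes named are those the study names for its 4 h and 5 h nuclei, the genes with the smallest p whose mice do not overlap, and in each list the called members, up to 4, and the 2 members of highest level. Some genes that fall under this rule are not reported here. Further list members whose mice do not overlap, the markers, Vgf, Homer1, Nr4a3, Kdm6b, Acvr1c, Baiap2, Lars2 and Srsf2 were named after their values were seen. The members and lists were chosen with earlier results of these data known.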

Additional observations from a re-analysis of the deposited data

Results flagged for a closer look

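In 101 genes with a range of at least 0.5 among the 5 h mice, a mouse was taken to stand apart when its gap to the nearest other mouse exceeded Dixon's critical share of the range, which chance gives in about 1 in 20 groups. Mouse 23 was low for 3 genes. Pcdh8 averaged 3.56 in mouse 23 and 6.56 to 6.74 in the other 5 h mice. Cntn5, a contactin, averaged 2.80 in mouse 23 and 7.30 to 7.70 in the others. Tnik averaged 4.28 in mouse 23 and 5.89 to 6.00 in the others.

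The other 3 cases were genes at 0 in all but 1 mouse. Fosb averaged 0.86 in mouse 22, and Ghsr, a mossy cell marker, averaged 0.78 in the same mouse. Bok, a CA3 marker, averaged 0.63 in mouse 9.

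Among the named genes, 2 differed between the 2 dates of the 5 h group in the edgeR fit. Nptx2 was lower at the later date, with a log2 difference of -2.77 (SE 0.65, adjusted p = 0.0382). Slc17a7 was lower by the same contrast, with a log2 difference of -3.41 (SE 0.38, adjusted p = 0.000128). The causes were not tested.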

How the results depend on the processing

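The counts of 40 genes higher, 1 lower and 0 between 5 h and 4 h moved most with the tool. DESeq2 called 1221 higher, 513 lower and 520 between 5 h and 4 h, and limma on mean log2(TPM+1) called 138, 1294 and 1. With limma on the earlier-date mice alone (a choice made after seeing the data) the counts were 225, 642 and 11, and on the later-date mice alone 200, 1770 and 245. With edgeR, the later-date mice alone gave 136, 365 and 346, and the earlier-date mice alone 42 and 3. The 6 mice alone gave 0 and 0, with 736 genes at an unadjusted p below 0.05, and give no 5 h against 4 h value. Without a gene threshold the counts were 91 and 24, with a threshold of 5000 genes 13 and 0, and with HC nuclei of any sort 65 and 1. DESeq2 size factors gave 29 and 2, thinning 56 and 4, leaving out nuclei with Arc above 2.5 57 and 7, and no filter on low counts 30 and 1. A minimum of 100000 aligned reads and sums of 5 or more nuclei gave 40 and 1. Leaving out 1 mouse gave 9 to 184 genes higher, 1 to 20 lower and 0 to 3 between 5 h and 4 h, with both extremes of the higher count from the HC mice (9 without mouse 7, 184 without mouse 6). The causes were not tested.

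The median log2 fold change over all genes moved from 0.00 to 0.80 without HC mouse 6, to 0.21 with the 6 mice alone and to -0.27 with limma, so that the direction of small changes is relative to it. A call with the opposite sign came up for Sort1, and the called gene Eif4enif1 turned its sign. Sort1, at 0.32 by edgeR, turned in 7 of 22 alternatives and was called in 3 of them, at -2.37 with limma, -2.16 with limma on the earlier-date mice and -2.58 with limma on the later-date mice. Among other genes that edgeR did not call, Jun turned in 4 alternatives, Slc17a7 in 3, Egr1 in 2, and Tnik, Tet3, Dlg2, Kcnk1 and Gadd45b in 1 each. Eif4enif1 was -0.45 with HC nuclei of any sort. The other genes called higher kept their sign in every alternative, and Arc, Ccnt2 and Synpo lost their call with the 6 mice alone only.

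No paired analysis was possible because HC mice 6 and 7 and 5 h mice 8, 9, 22 and 23 share no replicate number. The limits are 2 HC mice, of which 1 gave 5 nuclei, and 16 nuclei from the later 5 h date. At these depths a gene seen in few nuclei can take most of its counts from 1 nucleus, as for Sort1, Trip10 and Fos.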

Other observations

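Of 4 markers of immature granule neurons, 1 lay above HC in all 5 h mice and 2 below, against 3.62% and 11.6% of all genes. Sox11 and Neurod1, 2 transcription factors of this list, went opposite ways in level. Sox11 averaged 1.46 and 0.93 in HC and 2.97, 3.75, 3.52 and 3.83 at 5 h, above HC in all 5 h mice (log2 fold change 2.81, adjusted p = 0.206, edgeR). Neurod1 averaged 2.87 and 3.25 and 1.73, 1.84, 1.40 and 0.32, below HC in all 5 h mice (adjusted p = 0.574, edgeR). The clock repressor Bhlhe41 averaged 4.45 and 2.18 and 6.58, 6.20, 8.05 and 6.29 (adjusted p = 0.107, edgeR). Among the 18 clock genes, 2 lay above HC in all 5 h mice and 5 below. None of these 3 genes passed the test, and the mice of the 2 groups did not overlap for any of them.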
